A study of Mus musculus with 57 samples.

Results

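The 10 genes described here act in the wasting and growth of skeletal muscle, and they were chosen by name from 26089 curated RefSeq genes on mm10, the mouse genome build of the deposited peaks. They are Fbxo32, Trim63, Fbxo30, Foxo1, Foxo3, Foxo4, Mstn, Fst, Klf15 and Ddit4. All 10 were found in the annotation, none of them overlaps another gene, and no other gene starts within 2 kb of any of them. For each gene, peaks of 3 histone marks were read at the transcription start site (TSS, within 1 kb on either side) and over the gene body (from 1 kb past the TSS to the end of the gene), and gastrocnemius muscle was compared with brain cortex.

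All samples came from PSAPP mice, which carry a mutated human presenilin 1 and a chimeric mouse and human APP with the Swedish mutation, and all mice were 13 months old. No mouse without the transgenes was among the samples, so both tissues share the genotype, and also the single housing and the fixed daily ration of a modified AIN-93 diet. For each mark there were 9 cortex and 10 gastrocnemius libraries, 57 in all, from 10 mice, of which 9 gave both tissues. The study used male and female mice, but the labels give no sex for single libraries, so the sexes were not compared here. The promoters that drive the transgenes are not given in the sources used here.

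Muscle loses protein through the ubiquitin proteasome system and through autophagy. FOXO transcription factors switch on both, and AKT holds FOXO proteins out of the nucleus when insulin and IGF1 signal. Fbxo32 (atrogin-1) and Trim63 (MuRF1) encode the ubiquitin ligases that define the atrophy programme, myostatin limits muscle growth, and follistatin binds and blocks myostatin. H3K4me3 marks promoters that are active or poised, H3K27ac marks active promoters and enhancers, and H3K27me3 is the mark of Polycomb repression.

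To show what lies at these start sites, the 250 bases before the TSS were read from RefSeq promoters of build GRCm38.p6, in which 7 of the 10 genes matched (not Fbxo32, Fst and Foxo4). Trim63 and Mstn are printed because their start sites differed most between the tissues, and Klf15 and Ddit4 because theirs carried peaks in every library of both. Each runs 5′ to 3′ on the strand of the gene, and capitals mark matches to the forkhead motif bound by FOXO proteins (GTAAACA), to the hexamer of the glucocorticoid receptor (AGAACA) and to the E-box of myogenic and other helix-loop-helix factors (CANNTG), searched on both strands. The windows are chr4:134314870-134315119 on the plus strand for Trim63, chr1:53061390-53061639 on the plus strand for Mstn, chr6:90462326-90462575 on the plus strand for Klf15 and chr10:59951771-59952020 on the minus strand for Ddit4.
Trim63: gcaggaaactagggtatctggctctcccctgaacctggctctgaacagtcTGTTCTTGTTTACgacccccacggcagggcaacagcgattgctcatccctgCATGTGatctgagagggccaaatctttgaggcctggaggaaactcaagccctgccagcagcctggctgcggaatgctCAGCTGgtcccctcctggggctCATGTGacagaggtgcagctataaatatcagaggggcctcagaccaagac
Mstn: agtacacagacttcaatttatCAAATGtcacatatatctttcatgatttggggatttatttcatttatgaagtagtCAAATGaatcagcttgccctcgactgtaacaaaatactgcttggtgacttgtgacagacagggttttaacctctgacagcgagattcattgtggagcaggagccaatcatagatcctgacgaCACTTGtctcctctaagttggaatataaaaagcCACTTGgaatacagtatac
Klf15: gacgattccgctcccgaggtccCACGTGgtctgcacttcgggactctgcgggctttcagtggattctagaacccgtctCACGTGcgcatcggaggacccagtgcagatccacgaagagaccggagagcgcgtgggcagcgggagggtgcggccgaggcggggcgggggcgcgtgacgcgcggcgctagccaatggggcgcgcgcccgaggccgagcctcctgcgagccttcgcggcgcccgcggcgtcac
Ddit4: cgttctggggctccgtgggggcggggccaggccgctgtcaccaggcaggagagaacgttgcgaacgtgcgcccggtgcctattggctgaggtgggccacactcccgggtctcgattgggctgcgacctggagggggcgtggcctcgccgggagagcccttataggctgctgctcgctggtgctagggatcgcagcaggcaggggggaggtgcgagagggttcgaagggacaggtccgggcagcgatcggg
In Trim63 the receptor hexamer (from 200 to 195 bases before the start) and the forkhead motif (from 194 to 188 bases before it) are adjacent, and no other of the 7 promoters held either. Of 32817 promoters of this length, 3.16% held the forkhead motif, 16.1% the hexamer and 66.2% an E-box. Mstn held 4 E-boxes, Trim63 3 and Klf15 2, both of the form CACGTG. The promoters also differed in CG dinucleotides, with 4 in Trim63 and 3 in Mstn, against 20 in Foxo1, 22 in Ddit4, 31 in Foxo3, 37 in Klf15 and 40 in Fbxo30, where the median of all promoters was 6. For Fbxo30 the promoter table uses another start site than the one used for the levels. A match in letters is a description and says nothing of binding.

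The authors called peaks with epic2 separately in each library and deposited the number of reads in each peak, and no reads outside peaks were analysed here. Levels are given as RPM, that is reads of called peaks per M (mega) reads in autosomal peaks of the same library, with the reads of a broad peak shared over its length. A library without a peak is given as 0, although it may hold reads there, so fitted differences against a group without peaks are not given, and peak calls are compared instead. Where a value was computed with windows without a peak set to the lowest density of called peaks, this is stated beside it. Reads in peaks ranged from 9.16 to 19 M for H3K4me3, from 3.94 to 27.3 M for H3K27ac and from 2.99 to 18.2 M for H3K27me3. The lowest H3K27ac total was that of cortex replicate 9 and the highest H3K27me3 total that of gastrocnemius replicate 5, and leaving out either changed no call of these genes at the TSS. Marker peaks went mostly with the labelled tissues. Of 10 muscle fibre genes, all had an H3K4me3 peak at the TSS in every gastrocnemius library and 6 had none in any cortex library, and of 10 neuronal genes 9 had one in every cortex library and 6 in no gastrocnemius library. However, 2 of the muscle fibre genes had one in every cortex library, and 4 of the neuronal genes in every gastrocnemius library. Promoters of endothelial cells (summed H3K4me3 from 76 to 129 RPM in gastrocnemius and from 52.4 to 64.8 in cortex), fibroblasts (from 33.5 to 51.2 and from 8.27 to 18.6) and satellite cells (from 30.7 to 47.1 and from 7.55 to 11.1) also differed. The summed H3K4me3 of astrocyte (from 77.3 to 108 RPM in cortex and from 42.8 to 65.9 in gastrocnemius), oligodendrocyte (from 45 to 74.8 and from 15.6 to 32.3) and microglia and macrophage genes (from 17.1 to 35.6 and from 0 to 22) was higher in cortex on the median, and 4 adipocyte genes had no peak in cortex and from 14.7 to 28.5 RPM in gastrocnemius, from 1 of the 4. The part of these other cell types in the results was not tested. In such bulk tissue, more cells with a mark and more of the mark per cell cannot be told apart.

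To determine whether these promoters carry the active mark in both tissues, levels were compared by edgeR's quasi-likelihood test over 16451 genes, and a difference is called at a false discovery rate (FDR) under 0.1. Of the 10 genes 7 were called, Fbxo32, Trim63, Foxo1, Mstn and Fst higher in gastrocnemius and Klf15 and Fbxo30 lower. Over all genes tested 59.1% were called, 27.1% higher and 31.9% lower, so the count of called genes is near that background. The median difference of the 10 genes was 0.18 on the log2 scale, against -0.04 over all genes. With the totals of reads in autosomal peaks alone as scale (no TMM factors) the all-gene median was -0.33, a shift of -0.29, and the share of higher genes among those called fell from 46.0% to 20.5%. Relative to the all-gene median the members kept their direction under both scalings.

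At the TSS, 7 of the 10 genes were called for H3K27ac, Trim63, Foxo1, Mstn, Fst and Klf15 higher and Foxo3 and Fbxo30 lower, where 55.6% of 18016 genes were called (24.5% higher, 31.1% lower). Without TMM factors, the higher share among all called H3K27ac genes was 19.9% in place of 44.0%. In gene bodies, 9 of 10 were called for H3K4me3 (8 higher, Ddit4 lower, Foxo3 not called) against 62% of 15755 genes, and 10 of 10 for H3K27ac (9 higher, Ddit4 lower) against 71.3% of 17264 genes, with 32.2% and 33.2% of genes higher and 29.8% and 38.1% lower. The median gene body difference of the members was 0.92 for H3K4me3 and 0.67 for H3K27ac, against 0.14 and -0.06 over all genes. For gene body H3K27ac, 7 of the 10 genes had every gastrocnemius library above every cortex library, where 17.4% of all genes did. For H3K4me3 at the TSS this held for 3 (Trim63, Mstn and Fst) against 6.69%, and for H3K27ac for the same 3 against 4.51%. These 3 are also among the 7, and had H3K27ac peaks in only 0, 4 and 1 of 9 cortex libraries in either window. A library without a peak counts as 0 here. With uncalled windows at the lowest density, their gene body H3K27ac differences in edgeR were 1.92 (Trim63, adjusted p = 8.91e-11), 0.66 (Mstn, adjusted p = 0.105) and 0.06 (Fst, adjusted p = 0.756). H3K4me3 peaks of Trim63 and Mstn were also missing in some or all cortex libraries. In H3K4me3 gene bodies 5 of the genes lay wholly above (Fbxo32, Trim63, Mstn, Fst and Klf15) and Ddit4 wholly below, against 13.7% and 14.9% of all genes, and at the TSS Ddit4 lay wholly below, against 18.2%.

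**Figure D1:**
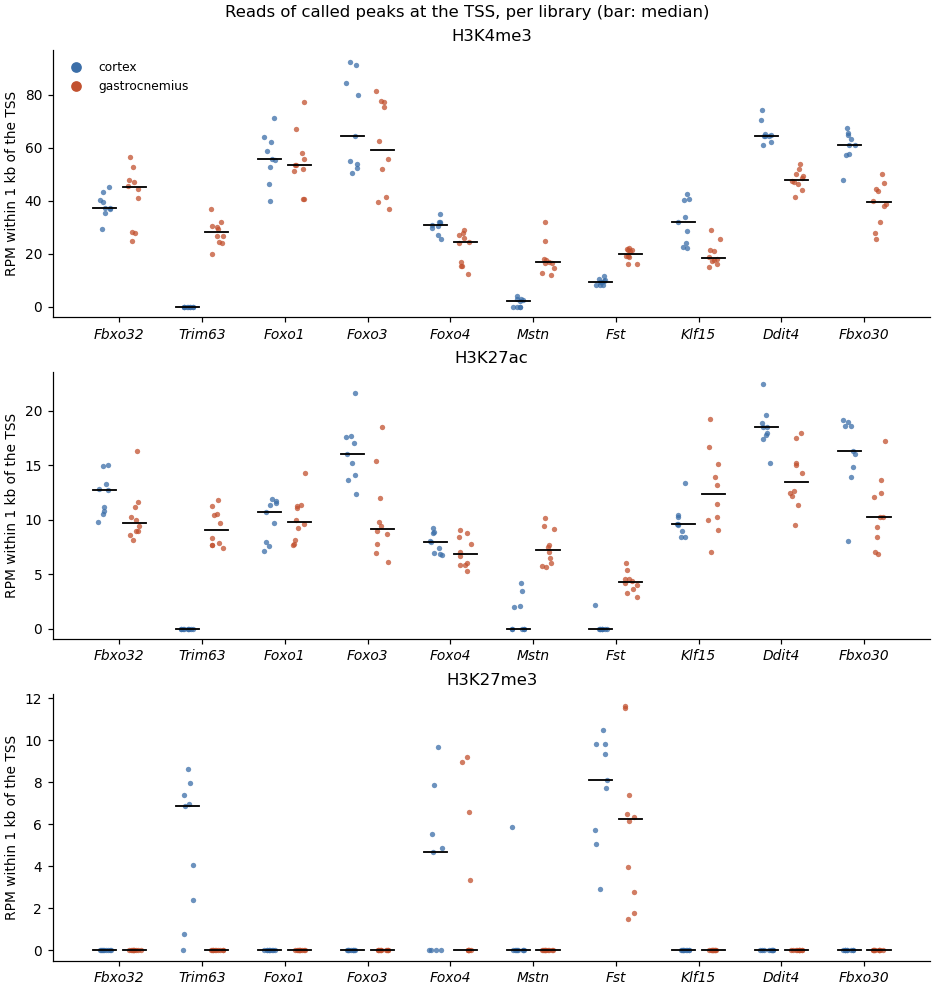
Reads of called peaks within 1 kb of the TSS in RPM (vertical axis) for the 10 genes, with 1 point per library (9 cortex, 10 gastrocnemius) and a bar at the median. Trim63 had no H3K4me3 or H3K27ac peak in any cortex library and one in all 10 gastrocnemius libraries, and 6 of the 10 genes had no H3K27me3 peak in any library.

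Trim63 (chr4:134315120-134329629) had called peaks of the active marks at its TSS in muscle libraries alone. No cortex library had an H3K4me3 peak at its TSS, whereas the 10 gastrocnemius libraries held from 19.8 to 37.0 RPM (median 28.1). The difference in peak calls was 100 percentage points (Fisher's exact test, two-sided, adjusted p = 4.49e-05 over 3411 genes with variable calls, of which 54.5% were called). H3K27ac gave the same picture, with no cortex peak and from 7.42 to 11.8 RPM in the 10 gastrocnemius libraries (adjusted p = 5.66e-05 over 5821 genes, 51.4% called). If windows without a peak are set to the lowest read density among the called peaks of that library, the difference at the TSS is 3.75 ± 0.12 (SE) for H3K4me3 and 2.42 ± 0.10 for H3K27ac on the log2 scale, and both remain called. The gastrocnemius H3K27ac peak had a median width of 28.4 kb, from 11.4 kb before the TSS to 17 kb past it, and so covered the whole gene in most libraries (median 100% of the gene body). Upstream of Trim63, H3K4me3 was called in up to 100% of gastrocnemius libraries and in no cortex library from 23.2 to 21 kb and from 16.2 to 12.4 kb before the TSS. The cortex libraries had their nearest H3K27ac peak from 4.72 to 6.72 kb away.

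Fbxo32 (chr15:58175879-58214892, minus strand) carried H3K4me3 at its TSS in every library, from 29.4 to 45.4 RPM in cortex (median 37.4) and from 24.6 to 56.5 in gastrocnemius (median 45.1). The groups overlapped, and the fitted difference was 0.40 ± 0.11 (SE, log2, adjusted p = 0.00395). Without TMM factors it was 0.12 and not called (adjusted p = 0.451), and relative to the all-gene median it was 0.44 with them and 0.46 without. The gene body separated the tissues, with 45.4 to 71.1 RPM of H3K4me3 in cortex and 104.4 to 171 in gastrocnemius (difference 1.06 ± 0.10, adjusted p = 9.5e-09). H3K27ac at the TSS did not pass the test (9.80 to 15.0 RPM in cortex and 8.09 to 16.3 in gastrocnemius, difference 0.00 ± 0.10, adjusted p = 0.989), and relative to the all-gene median the difference was 0.045 with TMM factors and 0.049 without (-0.26 before the median was subtracted, adjusted p = 0.0825). The H3K27ac peak at that TSS was much wider in muscle. Its width was 6.2 to 9.6 kb in cortex (median 8.6) and 19 to 53.4 kb in gastrocnemius (median 42.9), and the difference was 2.31 ± 0.19 (limma on log2 width, adjusted p = 3.7e-09). As whole deposited counts, the peak held 40.6 to 58.9 RPM in cortex and 154 to 250 in gastrocnemius. In the gene body, H3K27ac was 79.2 to 117 RPM in cortex and 154 to 181 in gastrocnemius (difference 0.72 ± 0.07, adjusted p = 1.5e-08).

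Fbxo30 (chr10:11281330-11297969), which encodes the atrophy ligase MUSA1, had the lower H3K4me3 at the TSS in muscle, from 25.6 to 50 RPM (median 39.4) against 47.9 to 67.4 in cortex (median 61.0). The groups overlapped slightly, with a difference of -0.36 ± 0.09 (adjusted p = 0.00292), but within 2.5 kb of the TSS it was 0.051 and not called (adjusted p = 0.387). The peak itself was wider in muscle, with 3.6 to 7.2 kb against 2.6 to 3.8 kb in cortex, and its whole count differed the other way (84.5 to 92.1 RPM in cortex and 90.0 to 102 in gastrocnemius, difference 0.14, adjusted p = 3.01e-06). H3K27ac behaved likewise, with -0.32 ± 0.12 at the TSS (adjusted p = 0.0375), 0.061 within 2.5 kb (adjusted p = 0.546) and 0.41 for the whole peak (adjusted p = 1.33e-05). In the gene body, H3K27ac was 0.661 to 5.10 RPM in cortex and 6.26 to 25 in gastrocnemius, without overlap, a difference of 2.87 ± 0.29 (adjusted p = 2.98e-08). H3K4me3 there also passed (1.16 ± 0.35, adjusted p = 0.00704), but not over the libraries whose deposited names hold no run number (0.85, adjusted p = 0.127, 7 cortex and 6 gastrocnemius libraries). Run number is the name used here for a numbered tag in some deposited names, and what the tag marks is not stated.

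**Figure D2:**
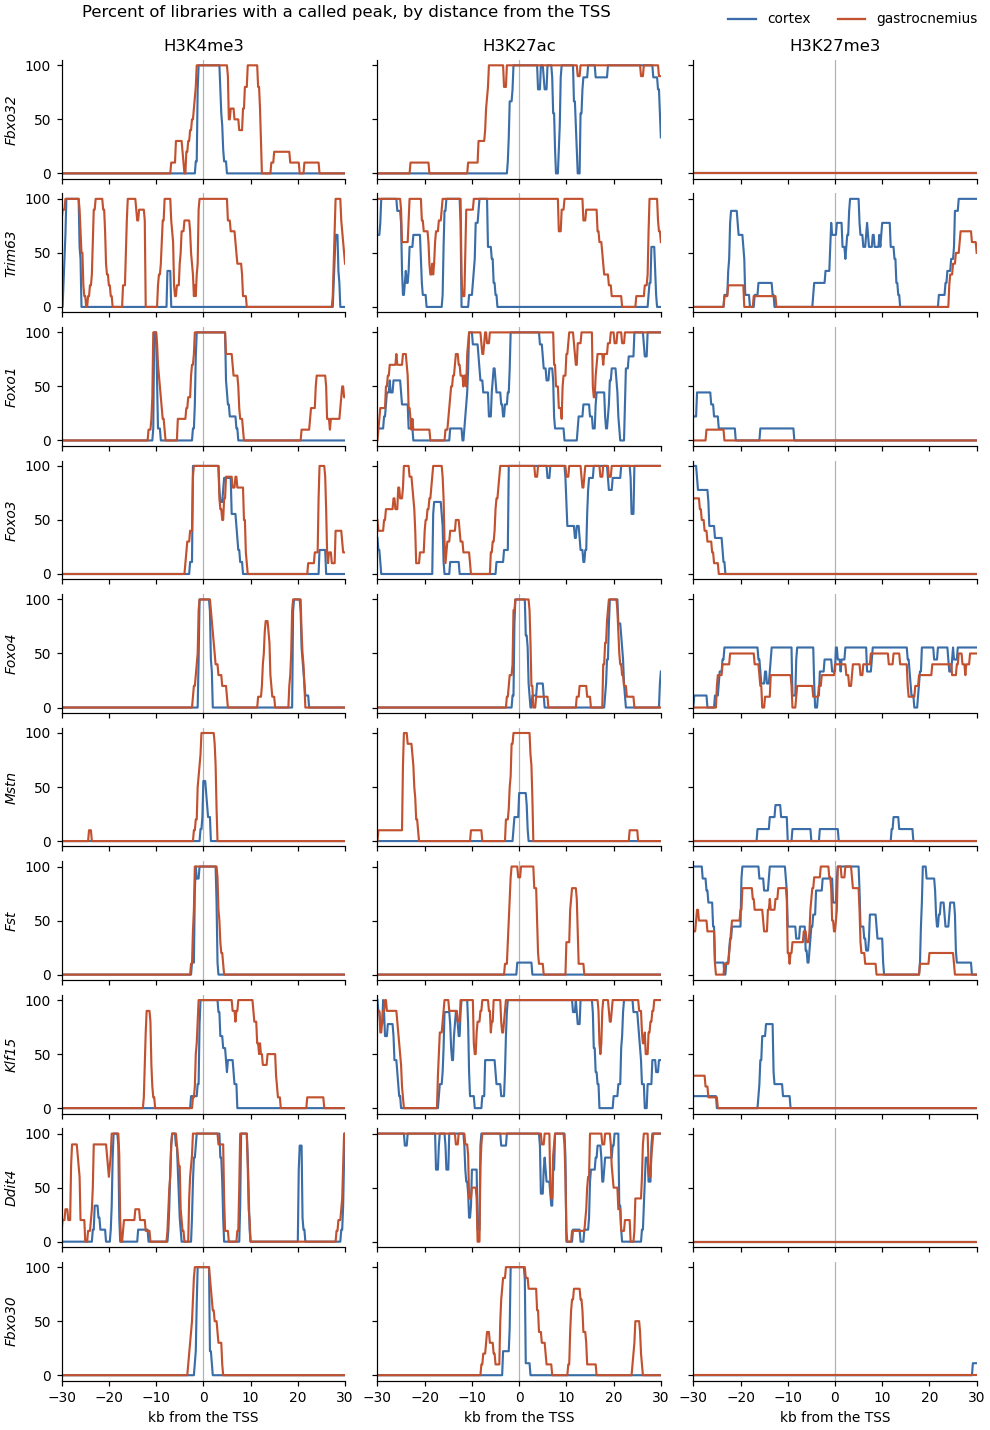
Percent of libraries (vertical axis, 0 to 100) with a called peak at each distance from the TSS (horizontal axis, kb, downstream to the right) for each gene and mark, in cortex and gastrocnemius. Over Fbxo32 the muscle H3K27ac peak runs on through the gene, Trim63 has no called H3K4me3 peak in cortex near its start, and Foxo4 has H3K27me3 in at most 55.6% of cortex and 50% of gastrocnemius libraries.

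Foxo1, Foxo3 and Foxo4 encode the transcription factors that act on the ligase genes, and the active marks lay at all 3 start sites in every library. Foxo1 (chr3:52268337-52350109) had 40.0 to 71.2 RPM of H3K4me3 in cortex (median 55.7) and 40.7 to 77.1 in gastrocnemius (median 53.4), which overlapped. Its fitted difference of 0.27 ± 0.10 (adjusted p = 0.0348) was -0.03 and not called without TMM factors (adjusted p = 0.801), but relative to the all-gene median it was 0.31 with them and 0.30 without. H3K27ac at the TSS of Foxo1 differed by 0.28 ± 0.10 (adjusted p = 0.0211, 0.02 and not called without TMM factors, 0.32 and 0.33 relative to the all-gene median), with 7.16 to 11.9 RPM in cortex and 7.65 to 14.3 in gastrocnemius. Its gene body held 64.8 to 159 RPM of H3K27ac in cortex and 163 to 189 in gastrocnemius, without overlap (0.61 ± 0.15, adjusted p = 0.00179). H3K4me3 in the Foxo1 body was called (102 to 145 and 123 to 212 RPM, 0.33 ± 0.10, adjusted p = 0.00696), but not over libraries without a run number (0.17, adjusted p = 0.194). The share of the Foxo1 body under H3K27ac peaks was 22.6% to 81.5% in cortex (median 55.7%) and 81.5% to 97.3% in gastrocnemius (median 86.4%).

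Foxo3 (chr10:42181845-42276695, minus strand) showed no called H3K4me3 difference at the TSS, with 50.4 to 92.4 RPM in cortex and 36.9 to 81.6 in gastrocnemius (0.08 ± 0.14, adjusted p = 0.634). The whole count of the H3K4me3 peak was called lower (-0.21, adjusted p = 2.14e-05). H3K27ac at the TSS was 12.4 to 21.6 RPM in cortex and 6.15 to 18.5 in gastrocnemius (-0.37 ± 0.16, adjusted p = 0.0594). That call was lost without cortex replicate 7 (-0.33, adjusted p = 0.108) or gastrocnemius replicate 10 (-0.33, adjusted p = 0.1003), and the whole count of the peak differed the other way (0.68, adjusted p = 0.0252). The Foxo3 H3K27ac peak was 9.2 to 17.8 kb wide in cortex and 7.6 to 86.0 kb in gastrocnemius (median 34.7), and the gene body held 187 to 233 RPM in cortex and 244 to 342 in gastrocnemius, without overlap (0.40 ± 0.06, adjusted p = 1.51e-05). H3K4me3 in the Foxo3 body was not called (-0.21 ± 0.13, adjusted p = 0.176). It was called lower with the mouse as a block (-0.24, adjusted p = 0.0955), with whole peak counts (-0.064, adjusted p = 0.0623) and with equally many top-scoring peaks in each library (-0.28, adjusted p = 0.0730).

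Foxo4 (chrX:101254528-101260873) had the lower levels of the 3. At its TSS, H3K4me3 was 25.5 to 35.1 RPM in cortex and 12.4 to 28.9 in gastrocnemius (-0.19 ± 0.13, adjusted p = 0.241), and with the mouse as a block the difference was called (-0.28, adjusted p = 0.0874). It was also called without TMM factors (-0.49, adjusted p = 0.00488), a scaling that moves all genes, and relative to the all-gene median it was -0.15 both with and without them. Within 2.5 kb of the TSS (0.0031, adjusted p = 0.971) and in whole peak counts (0.090, adjusted p = 0.167) the sign was the opposite and neither was called. H3K27ac was 6.73 to 9.24 RPM in cortex and 5.32 to 9.03 in gastrocnemius (0.12 ± 0.08, adjusted p = 0.23), and was called without gastrocnemius replicate 8 (0.15, adjusted p = 0.0736). It was also called higher within 2.5 kb of the TSS (0.48 ± 0.06, adjusted p = 8.87e-07) and in whole peak counts (0.20, adjusted p = 0.0230). Without TMM factors the sign turned (-0.15, adjusted p = 0.259), as it did in limma on log2(RPM + 1) and log2(RPM + 0.1), which use none (-0.14 and -0.16), and relative to the all-gene median it was 0.16 with and without TMM factors. Its gene body H3K4me3 was called (0.77 ± 0.29, adjusted p = 0.03), but not with the mouse as a block (0.65, adjusted p = 0.104), over libraries without a run number (0.22, adjusted p = 0.622) or in whole peak counts (0.081, adjusted p = 0.326). Gene body H3K27ac of Foxo4 was 1.00 to 6.48 RPM in cortex and 3.38 to 9.94 in gastrocnemius (0.62 ± 0.31, adjusted p = 0.0896), and was not called over libraries without a run number (0.56, adjusted p = 0.203), with run number as a covariate (0.51, adjusted p = 0.133) or in whole peak counts (0.16, adjusted p = 0.257).

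Mstn (chr1:53061640-53068079) and Fst (chr13:114452262-114458951, minus strand) encode a growth inhibitor and its antagonist, and both had more of the active marks in muscle. Mstn had an H3K4me3 peak in 5 of 9 cortex libraries (replicates 1, 4, 5, 8 and 9, from 2.04 to 3.82 RPM) and in all 10 gastrocnemius libraries (11.9 to 32.1 RPM, median 16.7). The groups did not overlap, the fitted difference was 3.82 ± 0.59 (adjusted p = 1.01e-05), and it was 3.07 with uncalled windows at the lowest density. The cortex peaks were short, 0.8 to 1.8 kb against 3.0 to 4.6 kb in muscle. H3K27ac was present in 4 of 9 cortex libraries (up to 4.21 RPM) and in all 10 gastrocnemius libraries (5.68 to 10.2 RPM), again without overlap (2.71 ± 0.70, adjusted p = 0.00311). By peak calls alone the Mstn difference was 44.4 percentage points for H3K4me3 (Fisher's exact test, adjusted p = 0.0596) and 55.6 for H3K27ac (exact, adjusted p = 0.0241), and neither passed over the libraries without a run number (exact, adjusted p = 0.119 and 0.279). In the Mstn body, H3K27ac was 0 to 1.68 RPM in cortex and 4.41 to 9.19 in gastrocnemius (3.22 ± 0.87, adjusted p = 0.00291), and with uncalled windows at the lowest density the difference was 0.66 (adjusted p = 0.105). A second muscle H3K27ac stretch lay 24.4 to 22.6 kb before the Mstn TSS, in up to 100% of gastrocnemius libraries and no cortex library.

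Fst had H3K4me3 in every library, 8.02 to 11.5 RPM in cortex (median 9.15) and 16.2 to 22.3 in gastrocnemius (median 20). The groups did not overlap, and the difference was 1.37 ± 0.11 (2.59-fold, adjusted p = 5.13e-10). The Fst peaks were somewhat wider in muscle (3.8 to 5.0 kb and 5.0 to 7.0 kb, 0.28 ± 0.08 on the log2 scale, adjusted p = 0.0052), less than the all-gene median width difference of 0.40. H3K27ac at the Fst TSS was called in 1 cortex library (replicate 6, 2.12 RPM) and in all 10 gastrocnemius libraries (2.88 to 5.98 RPM). The call difference was 88.9 percentage points (Fisher's exact test, adjusted p = 0.000436). With uncalled windows at the lowest density the Fst H3K27ac difference was 1.29 at the TSS (adjusted p = 1.26e-09) and 0.06 in the gene body (adjusted p = 0.756), so the gene body call (4.30 ± 1.11, adjusted p = 0.00206) rests on windows without a peak.

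Klf15, a transcription factor induced by glucocorticoids, and Ddit4 (REDD1), an inhibitor of mTORC1, carried both active marks at the TSS in every library. Klf15 (chr6:90462576-90479686) had 22 to 42.4 RPM of H3K4me3 within 1 kb of the TSS in cortex (median 32.0) and 14.9 to 28.9 in gastrocnemius (median 18.4), a difference of -0.36 ± 0.14 (adjusted p = 0.0346). The peak was wider in muscle, 4.0 to 9.8 kb in cortex and 7.8 to 17.2 kb in gastrocnemius (1.15 ± 0.18, adjusted p = 1.18e-05). As a whole it held 81.1 to 108 RPM in cortex and 99.9 to 149 in gastrocnemius, a difference of 0.46 (adjusted p = 5.75e-05), so the direction at Klf15 depends on whether reads are shared over the peak. The gene body of Klf15 held 43.5 to 73.4 RPM of H3K4me3 in cortex and 80.5 to 125 in gastrocnemius, without overlap (0.67 ± 0.11, adjusted p = 2.12e-05). H3K27ac was higher in muscle at the TSS, with 8.40 to 13.4 RPM in cortex and 7.00 to 19.3 in gastrocnemius (0.62 ± 0.11, adjusted p = 9.85e-05), and in whole peaks (68.1 to 102 and 151 to 276 RPM).

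Ddit4 (chr10:59949675-59951770, minus strand) lies wholly under 1 peak of each active mark that also covers its TSS window, and the levels per kb were the same in both windows, with H3K4me3 means of 32.9 RPM per kb in cortex and 24.0 in gastrocnemius and H3K27ac means of 9.23 and 6.91. H3K4me3 at the TSS was 61.0 to 74.4 RPM in cortex (median 64.6) and 41.5 to 54.1 in gastrocnemius (median 48.0), with no overlap. After TMM scaling the difference was -0.14 ± 0.08 (adjusted p = 0.117) and not called, without TMM factors it was -0.45 (adjusted p = 3.38e-06), and relative to the all-gene median it was -0.10 and -0.12. Within 2.5 kb of the TSS (-0.23, adjusted p = 0.00225) and in whole peak counts (-0.22, adjusted p = 0.00619) it was called lower. It was also called without cortex replicate 7 (adjusted p = 0.0787), gastrocnemius replicate 3 (adjusted p = 0.0294) or gastrocnemius replicate 4 (adjusted p = 0.0877), with -0.18 to -0.16. The gene body passed for H3K4me3 (33.4 to 40.7 RPM in cortex and 22.7 to 29.6 in gastrocnemius, -0.62 ± 0.08, adjusted p = 4.52e-07) and for H3K27ac (8.32 to 12.3 and 5.22 to 9.85 RPM, -0.47 ± 0.13, adjusted p = 0.0029). The TMM factors were set separately for the TSS windows and the gene bodies of all genes, so the TSS and gene body results of Ddit4 are 1 measurement on different scales. H3K27ac at the Ddit4 TSS was 15.2 to 22.5 RPM in cortex and 9.52 to 18 in gastrocnemius (-0.14 ± 0.09, adjusted p = 0.189), and was called without gastrocnemius replicate 10 (-0.18, adjusted p = 0.0871) and without TMM factors (-0.41, adjusted p = 0.00368), a scaling that moves all genes. Relative to the all-gene median it was -0.098 with TMM factors and -0.11 without. It was called lower too within 2.5 kb of the TSS (-0.25, adjusted p = 0.0108) and in whole peak counts (-0.27, adjusted p = 0.0764).

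**Figure D3:**
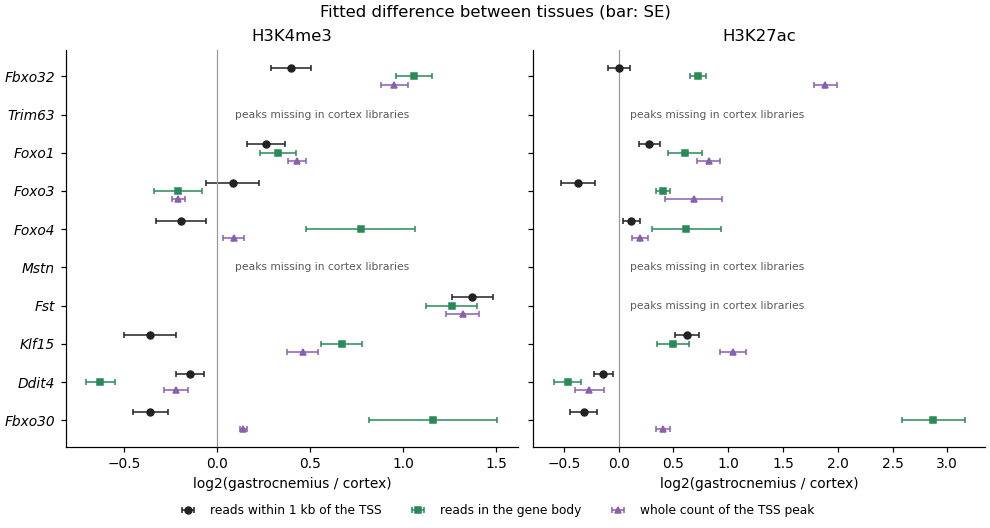
Fitted log2 difference of gastrocnemius over cortex (horizontal axis, bar SE) in 3 readings, reads within 1 kb of the TSS, reads in the gene body and the whole count of the peak at the TSS. Genes without peaks in some or all cortex libraries are left without a point. Klf15 and Fbxo30 lie below 0 for H3K4me3 at the TSS and above 0 for the whole peak.

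Peaks at these start sites were mostly wider in muscle, as they were for most genes. Of the 8 genes with an H3K4me3 peak in all 19 libraries, 7 were called wider (Foxo3 was not, 0.02 ± 0.18), where 76.7% of 13837 genes were called and 65.9% were wider. For H3K27ac, 7 of 7 were called wider, where 64.9% of 13275 genes were called and 55% were wider. The Ddit4 H3K27ac width (0.30 ± 0.14, adjusted p = 0.0826) was not called with the mouse as a block (0.31, adjusted p = 0.127). After the all-gene median (0.40 and 0.51) was subtracted, 5 genes were called for H3K4me3, of which Fbxo32, Klf15 and Fbxo30 lay above the median and Foxo3 (-0.38) and Ddit4 (-0.18) below it. For H3K27ac 4 genes were then called, Fbxo32, Foxo1, Foxo3 and Fbxo30, all above it. Relative to that median, Fbxo32 (1.80), Foxo3 (0.84) and Fbxo30 (0.64) had the largest H3K27ac excess, and Klf15 (0.75) the largest for H3K4me3.

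**Figure D4:**
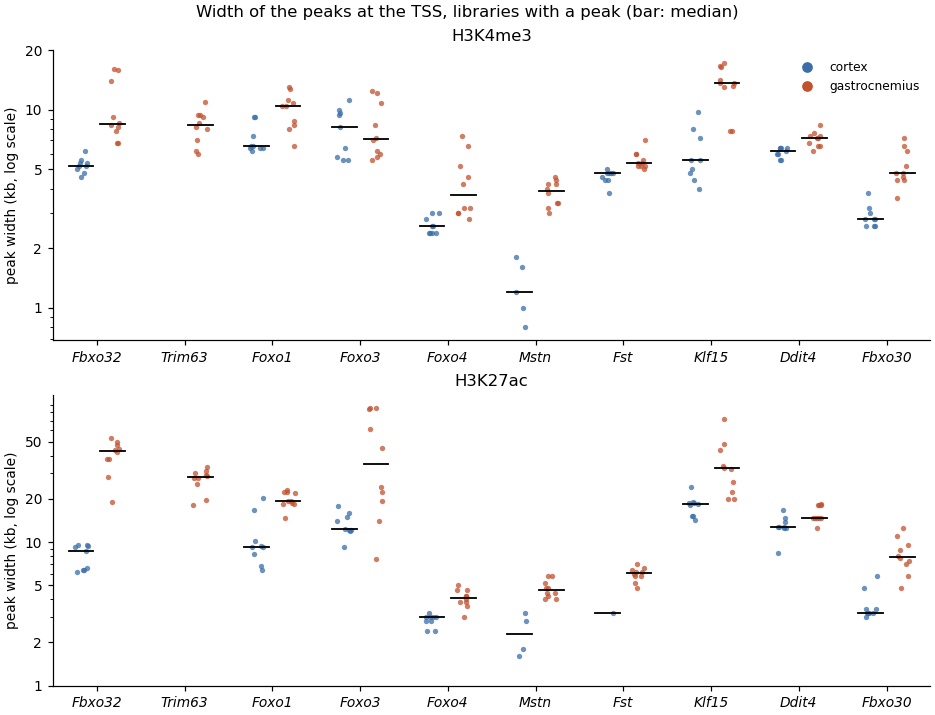
Width in kb (vertical axis, log scale) of the peaks that touch the TSS window, 1 point per library with a peak and a bar at the median. The H3K27ac peaks of Fbxo32 have medians of 8.6 kb in cortex and 42.9 kb in gastrocnemius.

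To examine the repressive mark, the same windows were read in the H3K27me3 libraries. Fbxo32, Foxo1, Foxo3, Klf15, Ddit4 and Fbxo30 had no H3K27me3 peak at the TSS or in the gene body in any of the 19 libraries. Over all genes, 65.2% had none at the TSS in any cortex library and 62.6% in any gastrocnemius library. Trim63, Foxo4 and Fst could be tested at the TSS, and 1 of the 3, Trim63, was called, where 42% of 8407 genes were called and 19.6% were lower in gastrocnemius. Trim63 entered this test through its cortex peaks alone, and its call is against gastrocnemius libraries that are all given as 0. Trim63 had too few libraries with a peak to be tested with the stricter filter of 10 libraries or with equally many top-scoring peaks in each library, and no member was called under either. By peak calls, its difference with equally many peaks was -44.4 percentage points (Fisher's exact test, adjusted p = 0.0977).

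H3K27me3 peaks were called over Trim63 in cortex and in no muscle library. At its TSS, 8 of 9 cortex libraries had a peak (0.778 to 8.63 RPM, none in replicate 7) and 0 of 10 gastrocnemius libraries did, a difference of -88.9 percentage points (Fisher's exact test, two-sided, adjusted p = 0.00114 over 9646 genes, 27.4% called). In the gene body all 9 cortex libraries had peaks, from 13.1 to 42.5 RPM (median 29.0), and no gastrocnemius library did. The edgeR level test called the gene body lower, but against gastrocnemius libraries that are all given as 0. Groups lay apart in this direction for 10.5% of all genes. Between 3.0 and 5.0 kb past the TSS the mark was called in up to 100% of cortex libraries and in no gastrocnemius library. With uncalled windows at the lowest density of called peaks the read difference was -0.33 (adjusted p = 0.259) at the TSS and -0.06 (adjusted p = 0.79) in the body, so the Trim63 difference in this mark rests on the absence of called peaks in gastrocnemius. The nearest H3K27me3 peak to the Trim63 TSS in gastrocnemius, found in 7 of 10 libraries within 30 kb, was 12.5 to 26.5 kb away.

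Fst carried H3K27me3 in all 19 libraries, together with H3K4me3. At the TSS it had 2.93 to 10.5 RPM in cortex and 1.49 to 11.6 in gastrocnemius, with overlap (-0.45 ± 0.31, adjusted p = 0.28). With uncalled windows at the lowest density it was called lower (-0.54, adjusted p = 0.0953). In the Fst body the levels were 16.0 to 27.1 and 11.9 to 24.1 RPM, and the difference of -0.48 ± 0.14 was called (adjusted p = 0.00755, 53.5% of 9244 genes called, 26.7% lower). That call was lost without the lowest-scoring peaks of each library (-0.57, adjusted p = 0.358). The TSS of Fst itself lay under an H3K27me3 peak in 66.7% of cortex and 40% of gastrocnemius libraries, and under an H3K4me3 peak in 100% of both.

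Foxo4, on the X chromosome, had H3K27me3 at the TSS in cortex replicates 5 to 9 (4.69 to 9.66 RPM) and gastrocnemius replicates 7 to 10 (3.34 to 9.23 RPM), and in no other library. The same cortex libraries had 22.6 to 27 RPM in the gene body, and gastrocnemius replicates 7 to 10 had 15.8 to 19.9, with 1.69 in replicate 6. Cortex replicates 5 to 9 and gastrocnemius replicates 6 to 10 are from the same 5 mice, so the mark was called over Foxo4 in every library of these 5 mice and in no library of the other 5. The same libraries stood apart over the whole X chromosome, which held 13.3% to 15.0% of the reads in H3K27me3 peaks in cortex replicates 5 to 9 and 3.32% to 5.57% in gastrocnemius replicates 6 to 10, against 0.0985% to 0.122% in cortex replicates 1 to 4 and 0.0144% to 0.060% in gastrocnemius replicates 1 to 5. The part of this in the Foxo4 values was not tested. The test over all 19 libraries, which pools these mice with those without a peak, called neither window (-0.38 ± 1.43, adjusted p = 0.861 at the TSS, and -0.89 ± 1.49, adjusted p = 0.647 in the body). Among the 5 mice with the mark, every cortex level in the gene body lay above every gastrocnemius level, whereas the levels at the TSS overlapped. These libraries were picked out by the mark itself, so that difference is a description with no test. Mstn had the mark at its TSS in 1 library, cortex replicate 9, with 5.90 RPM.

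**Figure D5:**
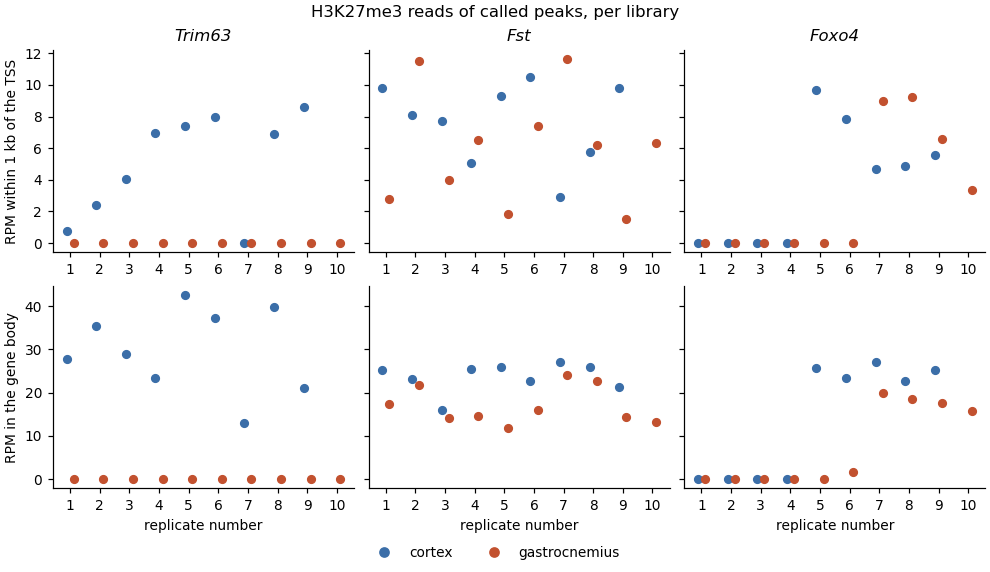
H3K27me3 reads of called peaks in RPM (vertical axes) at the TSS and in the gene body of Trim63, Fst and Foxo4, by replicate number (horizontal axis). Replicate numbers above 4 do not mark the same mouse in both tissues. Trim63 has called peaks in cortex libraries alone, Fst in all 19 libraries, and Foxo4 in cortex 5 to 9 and gastrocnemius 6 to 10.

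Read together in single mice, the peaks called at the TSS of Trim63 were H3K27me3 without H3K4me3 in 8 of 9 cortexes and H3K4me3 with H3K27ac but without H3K27me3 in 10 of 10 muscles. Fst had H3K4me3 with H3K27me3 in 9 of 9 cortexes and 10 of 10 muscles, and H3K27ac joined them in 1 cortex and in all 10 muscles. Mstn had none of the marks in 3 of 9 cortexes. The other genes apart from Foxo4 had H3K4me3 and H3K27ac without H3K27me3 in every sample.

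The TSS windows have the same length, so their levels can be set side by side. In cortex, mean H3K4me3 was 69.4 ± 17.5 RPM (SD, n = 9) at Foxo3, 65.8 ± 4.16 at Ddit4, 60.6 ± 5.89 at Fbxo30 and 56.3 ± 9.36 at Foxo1, which overlap in their spread. Then came Fbxo32 (38.3 ± 4.63), Klf15 (31.8 ± 8.12) and Foxo4 (30.5 ± 2.87), where Klf15 overlapped both of the others, then Fst (9.40 ± 1.2) and Mstn (1.55 ± 1.54). In gastrocnemius the order began with Foxo3 (60 ± 17.3, n = 10), Foxo1 (54.9 ± 11), Ddit4 (48.1 ± 3.67), Fbxo32 (41.6 ± 11.1) and Fbxo30 (38.7 ± 8.04), followed by Trim63 (28.1 ± 4.82), each overlapping its neighbours in this order. Foxo4 (21.8 ± 6.12), Klf15 (20 ± 4.38), Fst (19.7 ± 2.22) and Mstn (18.2 ± 6.02) did not differ beyond their spread.

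The gene whose TSS levels over all 57 libraries were most like each member, by the mean absolute difference of log2(RPM + 1) among genes over 10 kb away, was Tmem182 for Trim63 (0.16), Lims2 for Mstn (0.38), Trim6 for Fst (0.45) and Gm32261 for Foxo4 (0.24). For the other members it was Rhob for Ddit4 (0.10), Fancc for Fbxo32 (0.11), Acaa1a for Foxo1 (0.11), Gbe1 for Fbxo30 (0.12), Hyal3 for Klf15 (0.16) and Polr3g for Foxo3 (0.17). A smaller value is a closer likeness, so Fst and Mstn had the least alike nearest gene.

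Of 13 further ubiquitin ligases and proteolysis genes, 6 were called for H3K4me3 at the TSS, 2 higher and 4 lower (median -0.13, against -0.04 over all genes). Asb2, a muscle ligase, had a peak in 1 of 9 cortex libraries (2.74 RPM) and 10 of 10 gastrocnemius libraries (15.2 to 29.1 RPM, adjusted p = 1.73e-07), and in the gene body of Asb2 H3K27me3 was called in 9 of 9 cortex libraries (25.7 to 70.2 RPM) and 1 of 10 gastrocnemius libraries (adjusted p = 0.00508). Trim32 had 24.7 to 37.5 RPM in cortex and 23.9 to 55.1 in gastrocnemius (0.79 ± 0.12, adjusted p = 5.74e-06), and Fbxo31 was lower for H3K4me3 (-0.63 ± 0.13, adjusted p = 0.000493) and higher for H3K27ac (0.69 ± 0.09, adjusted p = 1.56e-06) at the TSS. In H3K4me3 gene bodies 11 of the 13 were called, 7 higher and 4 lower (median 0.41, against 0.14 over all genes), where 62% of all genes were called. For H3K27ac 7 were called at the TSS (4 higher, 3 lower) and 9 in gene bodies (5 higher, 4 lower), against 55.6% and 71.3% of all genes.

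Of 11 autophagy genes, 5 were called for H3K4me3 at the TSS (2 higher, 3 lower) and 2 for H3K27ac (both higher). Atg4b, the protease that processes LC3, was lower for H3K4me3 (65.7 to 98.7 RPM in cortex and 32.2 to 71.2 in gastrocnemius, -0.52 ± 0.11, adjusted p = 0.000453). In gene bodies, H3K27ac of the mitophagy receptor Bnip3 was 14.9 to 23.0 RPM in cortex and 64.0 to 100.3 in gastrocnemius, without overlap (2.11 ± 0.10, adjusted p = 3.4e-13). No autophagy gene had enough H3K27me3 to be tested.

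Of 15 myostatin and activin pathway genes, 14 were tested and 11 called for H3K4me3 at the TSS (5 higher, 6 lower). Wfikkn2 and Fstl3, which encode secreted binders of myostatin, each had peaks in 7 of 9 cortex libraries (up to 3.97 and 4.99 RPM) and in all 10 gastrocnemius libraries (8.12 to 18 and 7.44 to 12.6 RPM). Smad6, an inhibitory SMAD, had 17.8 to 24.1 RPM in cortex and 30.3 to 47.9 in gastrocnemius (1.28 ± 0.07, adjusted p = 1.42e-12), and carried H3K27me3 at the TSS in 9 of 9 cortex libraries (8.74 to 15.3 RPM) and no gastrocnemius library. For H3K27me3, 9 of the 15 were tested at the TSS and 4 called, Fstl1 and Inhba higher in gastrocnemius and Smad6 and Wfikkn2 lower. Of all genes 42% were called there (22.4% higher, 19.6% lower), which is near this count. In gene bodies 5 of 8 were called, 4 higher and 1 lower (median 0.15, against -0.16 over all genes), where 53.5% of all genes were called (26.8% higher, 26.7% lower). Fstl1, a follistatin-like protein gene, had H3K27me3 at the TSS in no cortex library and in all 10 gastrocnemius libraries (1.05 to 11.9 RPM), and Inhba had it in 2 cortex libraries and all 10 gastrocnemius libraries (4.08 to 12.4 RPM). The TSS calls of Fstl1 and Smad6 for this mark are against a tissue without a peak there, so they rest on windows that may hold reads. Acvr1c, a type I receptor, was lower in muscle for H3K4me3 (-1.18 ± 0.11, adjusted p = 8.24e-09), and Inhba, which encodes the activin A subunit, was lower for H3K27ac (-0.72 ± 0.13, adjusted p = 0.000135).

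Of 20 genes of IGF1, AKT and mTORC1 signalling, 12 were called for H3K4me3 at the TSS, 8 higher and 4 lower, and 12 for H3K27ac, 5 higher and 7 lower. Igf1 was higher in muscle for H3K4me3 (0.444 to 7.18 RPM in cortex and 6.31 to 17.7 in gastrocnemius, 1.54 ± 0.33, adjusted p = 0.000409) and had H3K27me3 at its TSS in 9 of 9 cortex libraries (7.69 to 11.4 RPM) and 2 of 10 gastrocnemius libraries. Of 3 genes of this list tested for H3K27me3 at the TSS 2 were called, against 42% of all genes. Igf1 was lower in gastrocnemius and Irs2, an insulin receptor substrate, higher, with peaks in no cortex library and 5 gastrocnemius libraries (up to 9.73 RPM). Irs2 entered the test through its gastrocnemius peaks alone, so its call rests on cortex windows without a peak, which may hold reads. Tsc2, a brake on mTORC1, was lower for H3K4me3 (45.3 to 71.3 RPM and 20.2 to 31.3 RPM, -0.91 ± 0.12, adjusted p = 8.96e-07).

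Of 10 glucocorticoid-responsive genes, 7 were called for H3K4me3 at the TSS (4 higher, 3 lower) and 10 for H3K27ac (6 higher, 4 lower). Tsc22d3 was higher (6.89 to 9.69 RPM in cortex and 14.8 to 22 in gastrocnemius, 1.38 ± 0.09, adjusted p = 1.64e-11) and Sgk1 lower for H3K4me3 (30 to 38.4 and 5.92 to 10.6 RPM, -1.71 ± 0.11, adjusted p = 9.12e-12). Of 2 genes of this list tested for H3K27me3 at the TSS 1 was called, against 42% of all genes. This was Sgk1, higher in gastrocnemius, with peaks in no cortex library and 6 gastrocnemius libraries (up to 9.44 RPM). Sgk1 too entered the test through its gastrocnemius peaks alone, so its call rests on cortex windows without a peak. At the TSS, 59.1% of all genes were called for H3K4me3 (27.1% higher, 31.9% lower) and 55.6% for H3K27ac (24.5% higher, 31.1% lower). Read against these shares, the H3K4me3 and H3K27ac counts of the lists at the TSS lie on both sides of the background.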

How the data were processed

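Chromatin of cortex and gastrocnemius was immunoprecipitated for H3K4me3, H3K27ac and H3K27me3 and sequenced. Reads were mapped by the authors with BWA (build mm10) and filtered with SAMtools, and epic2 then called peaks in each library, without an input. No version of epic2 was found in the sources used here. The deposited count is the number of reads in each peak, unnormalized, and the deposited score ranks the peaks and was used here only in alternatives.

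Groups came from the tissue and mark in the labels. Counts were shared by overlap with the TSS window (1 kb on either side) or gene body, rounded, and tested in edgeR 4.0.16 (R 4.3.3) by quasi-likelihood with TMM factors over autosomal genes, for genes with a peak in at least 5 of 19 libraries. Widths were tested in limma 3.58.1 and peak calls by two-sided Fisher's exact test. P-values were adjusted by Benjamini-Hochberg over all genes tested, and the scripts were tested on simulated data. RPM carry no TMM factor. Mouse and run number came from the deposited names, where 2 of 9 cortex and 4 of 10 gastrocnemius libraries hold a run number. What the tag called run number marks is not stated in the sources used here. Both tissues came from the same animal in 9 mice, and same-mouse deviations correlated between -0.08 and 0.06. Alternatives included DESeq2 1.42.0, other scalings, filters, windows, peak sets, a mouse block and leaving out each library.

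Members and lists (5 of the pathway, 9 of markers) were chosen with earlier results of these data known. All 10 members are named, and other genes by the largest called difference in their list. Sharing by length assumes even density along a peak, and the TSS and gene body share the reads of a broad peak.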

Additional observations from a re-analysis of the deposited data

Results flagged for a closer look

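In 9 of 87 groups of libraries (10.3%), the highest or lowest library stood apart from the others by Dixon's test, which chance alone does in about 1 in 20 groups. In cortex, Fst had H3K27ac in replicate 6 alone, with 2.12 RPM at the TSS and 2.56 RPM in the gene body, and Mstn had H3K27me3 at the TSS in replicate 9 alone, with 5.901 RPM. Cortex replicate 8 was lowest for Fbxo30 H3K27ac at the TSS (8.024 RPM, next 13.9) and highest in its gene body (5.097 RPM, next 2.596). Klf15 H3K27ac at the TSS was highest in cortex replicate 9 (13.35 RPM, next 10.44), the library with the fewest H3K27ac reads in peaks (3.94 M). In gastrocnemius, Mstn H3K4me3 in the gene body was highest in replicate 6 (31.44 RPM, next 21.83), Fbxo32 H3K27ac at the TSS in replicate 7 (16.26 RPM, next 11.58) and Fst H3K27ac in the gene body in replicate 10 (8.246 RPM, next 6.658). Without cortex replicate 6 no cortex library had an H3K27ac peak at the Fst TSS, so no difference is given. The cause of these values was not tested.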

How the results depend on the processing

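Of the values of single genes under alternatives other than leaving out a library, 734 kept their direction and side of the threshold, 37 reversed, 21 gained a call and 30 lost one. With each library left out, which was done for levels at the TSS and not for gene bodies, widths or peak calls, 423 kept both, 7 reversed, 5 gained and 2 lost a call, and the number of members called stayed within 1.5 times in all 57 fits. The tally of alternatives other than leaving out a library includes settings that move all genes alike, such as no TMM factors or subtracting the all-gene median width. It does not separate them. For every mark, a window without a called peak may still hold reads.

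Without TMM factors the log2 differences of Foxo1 (-0.035) and Foxo3 (-0.21) for H3K4me3 and of Fbxo32 (-0.26) and Foxo4 (-0.15) for H3K27ac at the TSS reversed, as they did in limma on log2(RPM + 1) (-0.041, -0.22, -0.25 and -0.14) and on log2(RPM + 0.1) (-0.042, -0.23, -0.27 and -0.16), which use no TMM factor. With whole peak counts, H3K4me3 of Foxo3 (-0.21), Foxo4 (0.090), Klf15 (0.46) and Fbxo30 (0.14), H3K27ac of Foxo3 (0.68) and Fbxo30 (0.41) and gene body H3K27me3 of Foxo4 (0.11) reversed. Within 2.5 kb of the TSS, H3K4me3 of Foxo3 (-0.11), Foxo4 (0.00311) and Fbxo30 (0.051) and H3K27ac of Fbxo30 (0.061) reversed. Fbxo32 H3K27ac at the TSS, near 0 throughout, was -0.00783 without the lowest-scoring peaks, -0.00176 with equally many peaks per library, -0.000674 over libraries without a run number and -0.064 to 0.046 with each library left out. With equally many peaks Foxo4 H3K27me3 at the TSS was 0.077.

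Relative to the all-gene median, the H3K4me3 width differences of Foxo3 (-0.38), Fst (-0.12) and Ddit4 (-0.18) and the H3K27ac width of Ddit4 (-0.21) reversed, and 5 and 4 members were called in place of 7 and 7. With each library centred on its own median width, an alternative chosen after seeing the data, the H3K4me3 widths of Foxo3 (-0.33), Fst (-0.069) and Ddit4 (-0.13) and the H3K27ac widths of Foxo4 (-0.077) and Ddit4 (-0.29) reversed, with 4 and 3 called. With the mouse as a replicate block, Foxo3 H3K4me3 width reversed (-0.055), and apart from the 4 calls given with the results no other call changed. Over libraries without a run number 1 member was called by H3K4me3 peak calls in place of 2. For H3K27me3 at the TSS, 2 members were called with no filter, 0 with the stricter filter and 0 with equally many peaks, in place of 1. All-gene calls there were 6402 with no filter and 1883 with the stricter one, in place of 3527, over more and fewer genes tested. In H3K27me3 gene bodies 1 member was called in place of 2 with the stricter filter, with uncalled windows at the lowest density and without the lowest-scoring peaks. The cause of the other changes was not tested.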
